A study of Mus musculus with 7 samples.

Results

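Lung CD11b+ conventional dendritic cells (cDC2s) of Irf3-deficient mice given house dust mite (HDM) extract were compared with cDC2s of PBS-treated wild type (WT) mice. The comparison uses 5 of the 7 arrays of the series, chosen by their labels: 3 of HDM-treated Irf3-deficient mice and 2 of PBS-treated WT mice. It covers 19938 genes that had a probeset of their own on Affymetrix Mouse Gene 1.0 ST arrays. These arrays measure RNA by the brightness of labelled material made from it, on probes spread along each transcript. All mice were female with the C57Bl/6 strain background, and no age is given. The extract, at 100 µg, or saline had been given 12 hours before the cells were isolated. Each array held RNA of 1 pool of cDC2s from 10 mice, sorted for MHC-II, CD11c and CD11b and against CD64 and Ly6C. The labels name neither the Irf3 allele nor the route of the extract, and do not say whether the pools came from separate experiments, so p-values measure the spread between these pools only. The 2 remaining arrays, of HDM-treated WT mice, share in the estimate of the spread, and their values are given beside the comparison. Irf3-deficient mice given PBS were not analysed here. Genotype and treatment therefore differ together, and their parts in any difference below cannot be told apart.

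IRF3 is a transcription factor that waits in the cytoplasm until kinases downstream of innate sensors (TLR3, TLR4, cGAS-STING, RIG-I-like receptors) phosphorylate it, after which it enters the nucleus and switches on interferon-β and some antiviral genes directly. Secreted interferon then acts through its receptor on a large set of interferon-stimulated genes, IRF7 among them. HDM extract contains proteases, lipids, β-glucans and bacterial products that reach dendritic cells through TLR4, the C-type lectins and other receptors. cDC2s that have taken up antigen mature, gain CCR7 and costimulatory molecules, and move to the lymph node, where they can prime T helper 2 cells. The comparison shows how treated cells that lack Irf3 stand against PBS-treated WT cells.

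Irf3 itself read 9.48 and 9.56 (log2 expression) in the PBS pools, 9.59 and 9.57 in the treated WT pools, and 8.26, 8.13 and 8.30 in the Irf3-deficient pools. The Irf3-deficient pools lay below all 4 WT pools. Irf3 fell by 1.29 on the log2 scale (SE 0.10), or 2.45-fold with a 95% confidence interval of 2.09 to 2.87 (limma, adjusted p = 1.66e-05). Here and below a log2 difference is treated Irf3-deficient minus PBS-treated WT, with its standard error in limma's fit over all 7 arrays, and a gene "rose" or "fell" only if its p-value, adjusted over all 19938 genes, was under 0.05. Which exons the Irf3 probes cover is not given in the sources used here.

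Of the genes of the sort, Itgax (CD11c) and the MHC class II genes H2-Aa and H2-Ab1 each lay above at least 98.9% of all genes and overlapped between the compared groups. Itgam (CD11b) lay above 94.8% of all genes, and its levels did not overlap: it fell by 0.34 (adjusted p = 0.0443). The cDC2 marker Cd209a, which was no part of the sort, lay above 99.8% of all genes. Fcgr1, which encodes the CD64 used to leave macrophages out, was not dim: it read 8.72 and 9.30 in the PBS pools, 10.61 and 10.99 in the treated WT pools and 8.99, 9.14 and 9.27 in the Irf3-deficient pools. Its levels overlapped between the compared groups. Over all genes, correlations were 0.995 to 0.997 between arrays of the same compared group, and PBS arrays correlated with Irf3-deficient arrays at 0.985 to 0.990. PBS arrays with treated WT arrays correlated at 0.973 to 0.977.

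Treated Irf3-deficient cDC2s differed from PBS-treated WT cDC2s in 2153 genes (10.8% of all genes tested), of which 1175 (5.89%) were higher and 978 (4.91%) lower. Only 200 of these differed at least 2-fold (1.00% of all genes), 114 of them higher and 86 lower. The shares of 5.89% and 4.91% are the background for each count of higher and lower genes in a list below. Some genes belong to more than 1 list, so the counts of different lists are not separate. The median difference over all genes was 0.04. In the same fit 3505 genes differed between treated and PBS-treated WT cells, 1664 higher (8.35%) and 1841 lower (9.23%). Between treated Irf3-deficient and treated WT cells 3932 genes differed, 2138 higher (10.7%) and 1794 lower (9.00%). These 3 comparisons share arrays, so their values are only set side by side. Without PBS pool 1 the count of the Irf3-deficient against PBS comparison fell to 749 genes (479 higher, 270 lower), with the remaining PBS pool assumed to vary like the other groups. It was 1504 without PBS pool 2 (722 higher, 782 lower), 1377 without Irf3-deficient pool 2 (547 lower) and 1447 without Irf3-deficient pool 3 (613 lower).

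**Figure D1:**
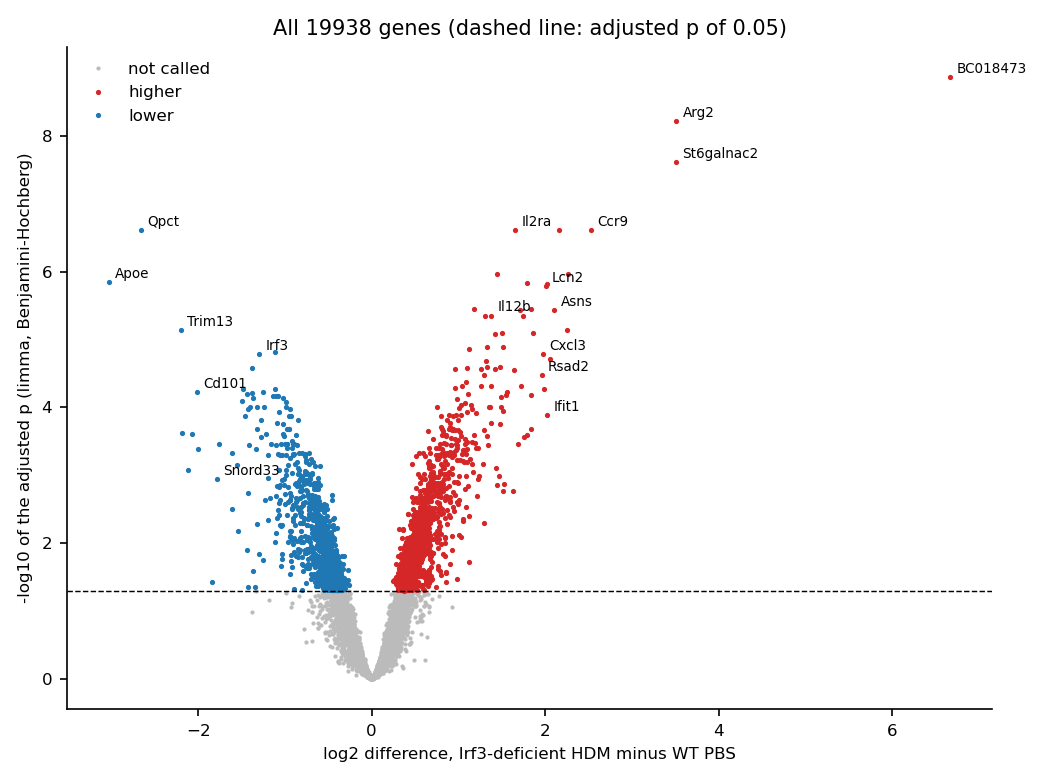
Each point is 1 of 19938 genes, with the log2 difference of treated Irf3-deficient and PBS-treated WT cells on the x axis and -log10 of limma's adjusted p on the y axis. The 1175 genes called higher are red and the 978 called lower are blue, and the labelled genes are described in the text, from Apoe at -3.03 to BC018473 at 6.67.

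The 27 gene lists compared were chosen with earlier results of these data known. Interferon-stimulated genes had the highest median difference of these lists, just above the 0.59 of maturation and migration genes. Of 55 measured members, 40 rose (72.7%, against 5.89% of all genes), 2 fell and 13 did not pass, and the median difference was 0.60. Ifit1, Rsad2 and Cxcl10 had the largest rises. In treated WT cells 53 members were higher than in PBS-treated WT cells, with a median of 2.59, and 53 were lower in treated Irf3-deficient than in treated WT cells, with a median of -2.00. The mean level over the 55 genes was 9.42 and 9.32 in the PBS pools, 12.04 and 12.19 in the treated WT pools and 10.19, 10.13 and 9.83 in the Irf3-deficient pools. Irf3-deficient pools thus lay between the other groups and nearer to the PBS pools. The 40 rises were 26 without PBS pool 1 and also 26 without PBS pool 2. Median centring of the arrays left 31.

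Interferon-stimulated genes are known to be reached through the interferon-stimulated response element, a doublet of the letters GAAA. Promoter sequences from RefSeq (GRCm38.p6), 250 bases before to 50 after the start of transcription, were searched on both strands for GAAA, any 2 bases and GAAA again, with overlapping matches counted. A match was found in 19 of the 30 interferon-stimulated genes that rose and had a window (63.3%), and in 3 of 12 that did not rise. Among all genes that rose, these interferon-stimulated genes included, it was found in 57 of 936 with a window (6.09%). Among all measured genes with a window it was found in 607 of 15614 (3.89%). The 4 pieces below, of 100 bases each and written 5′ to 3′ on the gene's own strand with the matches in capitals, show such letters for Ifit1, Rsad2 and Cxcl10, whose rises are given next, and for Gbp3, which did not rise.
Ifit1, chr19:34640749-34640848, plus strand, 140 to 41 bases before the start: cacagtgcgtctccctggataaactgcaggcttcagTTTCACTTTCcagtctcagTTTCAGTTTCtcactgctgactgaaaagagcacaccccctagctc
Rsad2, chr12:26456518-26456617, minus strand, 165 to 66 bases before the start: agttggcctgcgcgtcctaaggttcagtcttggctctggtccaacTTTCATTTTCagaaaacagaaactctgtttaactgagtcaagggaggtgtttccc
Cxcl10, chr5:92349040-92349139, minus strand, 250 to 151 bases before the start: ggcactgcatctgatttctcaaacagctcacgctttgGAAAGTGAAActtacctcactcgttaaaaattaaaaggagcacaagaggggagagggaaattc
Gbp3, chr3:142559944-142560043, plus strand, 100 to 1 bases before the start: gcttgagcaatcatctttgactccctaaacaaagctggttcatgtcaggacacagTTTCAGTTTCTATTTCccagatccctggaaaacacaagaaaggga
Ifit1 held 2 matches on the opposite strand, 104 to 76 bases before the start. Rsad2 held 1 on the opposite strand, Cxcl10 held 1 on its own strand, and Gbp3 held 2 overlapping matches on the opposite strand.

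Ifit1, whose protein binds viral RNA that lacks the host's cap methylation, read 8.88 and 8.64 in the PBS pools and 11.10, 11.05 and 10.19 in the Irf3-deficient pools. The treated WT pools were far higher, at 13.02 and 13.17. No Irf3-deficient pool overlapped either WT group, and pool 3 was the lowest of them. Ifit1 rose 4.07-fold (95% confidence interval 2.94 to 5.64, limma adjusted p = 0.000129). Its relatives Ifit2 (1.45), Ifit3 (1.52) and Ifit3b (1.52), which may share probes with it, also rose.

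Rsad2, which encodes the antiviral enzyme viperin, read 9.15 and 8.99 in the PBS pools, 13.68 and 13.71 in the treated WT pools and 11.19, 11.32 and 10.57 in the Irf3-deficient pools. It rose 3.89-fold (3.00 to 5.04, adjusted p = 3.34e-05), and Irf3-deficient pool 3 was again the lowest of its group. Cxcl10, a chemokine that draws CXCR3+ T cells, read 11.28 and 11.45, then 13.88 and 14.28, then 13.18, 12.93 and 12.62 in the same order. It rose 2.91-fold (2.33 to 3.65, adjusted p = 6.68e-05). Both genes stayed below the treated WT level in all 3 Irf3-deficient pools.

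The other CXCR3 ligands moved with Cxcl10. Cxcl9 rose by 1.33 (SE 0.11), from 10.91 and 11.00 to 12.49, 12.28 and 12.07. Cxcl11 rose by 1.16 (SE 0.16), from 7.91 and 7.80 to 9.03, 9.15 and 8.87. In treated WT cells these genes stood at 13.49 and 13.55 (Cxcl9) and at 11.05 and 11.66 (Cxcl11), above every Irf3-deficient pool.

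Irf7, the amplifier of the interferon response, rose by 1.06 (SE 0.13, adjusted p = 0.000429). It read 9.40 and 9.44 in the PBS pools, 13.37 and 13.56 in the treated WT pools, and 10.70, 10.54 and 10.20 in the Irf3-deficient pools. Oasl1, an OAS-like protein that restrains Irf7 translation, rose by 1.51 (SE 0.12), from 8.52 and 8.83 to 10.27, 10.20 and 10.09. Ifi205, a member of the Ifi200 family of DNA-binding proteins, rose by 1.50 (SE 0.11), from 11.59 and 11.31 to 12.97, 13.02 and 12.84. Ifi205 came closest of these to the treated WT pools, which read 13.55 and 13.85.

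Several other antiviral genes, named here after their values were seen, rose as well. Mx1 (0.80) and Mx2 (0.92), GTPases that block viruses, rose in all 3 Irf3-deficient pools, as did Zbp1 (0.91), a sensor of Z-form nucleic acids, Rtp4 (1.48) and Oasl2 (0.99). Usp18, which removes ISG15 from proteins, rose by 0.58 and lost its call without PBS pool 1 (adjusted p = 0.0994), PBS pool 2 (0.11) or Irf3-deficient pool 2 (0.0651). Slfn4, a Schlafen gene, showed the widest gap between the treated groups of these: 7.02 and 7.12 in the PBS pools, 11.60 and 11.87 in the treated WT pools, and 7.37, 7.54 and 7.69 in the Irf3-deficient pools. Its rise of 0.46 (adjusted p = 0.0347) was lost without any 1 of 4 pools, with the highest adjusted p, 0.228, without PBS pool 1.

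A group of 13 interferon-stimulated genes did not pass, with differences of -0.25 to 0.40. Among them Gbp3, a guanylate-binding protein, read 9.59 and 9.40 in the PBS pools, 11.26 and 11.79 in the treated WT pools, and 9.48, 9.52 and 9.33 in the Irf3-deficient pools. Iigp1, an immunity-related GTPase, read 6.99 and 7.10, then 9.78 and 10.36, then 6.79, 7.08 and 6.66. Bst2, the virus-tethering protein, read 9.51 and 9.84, then 12.12 and 12.11, then 9.98, 9.80 and 9.80. For all 3 the Irf3-deficient pools overlapped the PBS pools and stood apart from the treated WT pools. The 95% confidence intervals of their differences reached 1.36-fold higher for Bst2, 1.30-fold lower for Gbp3 and 1.48-fold lower for Iigp1. Ifi27 and Ms4a4c fell by 0.36 and 0.40, and Ifi27 lost its call on leaving out any 1 of the 5 compared arrays (adjusted p from 0.0766 to 0.287), Ms4a4c any but PBS pool 2 (0.0581 to 0.514).

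**Figure D2:**
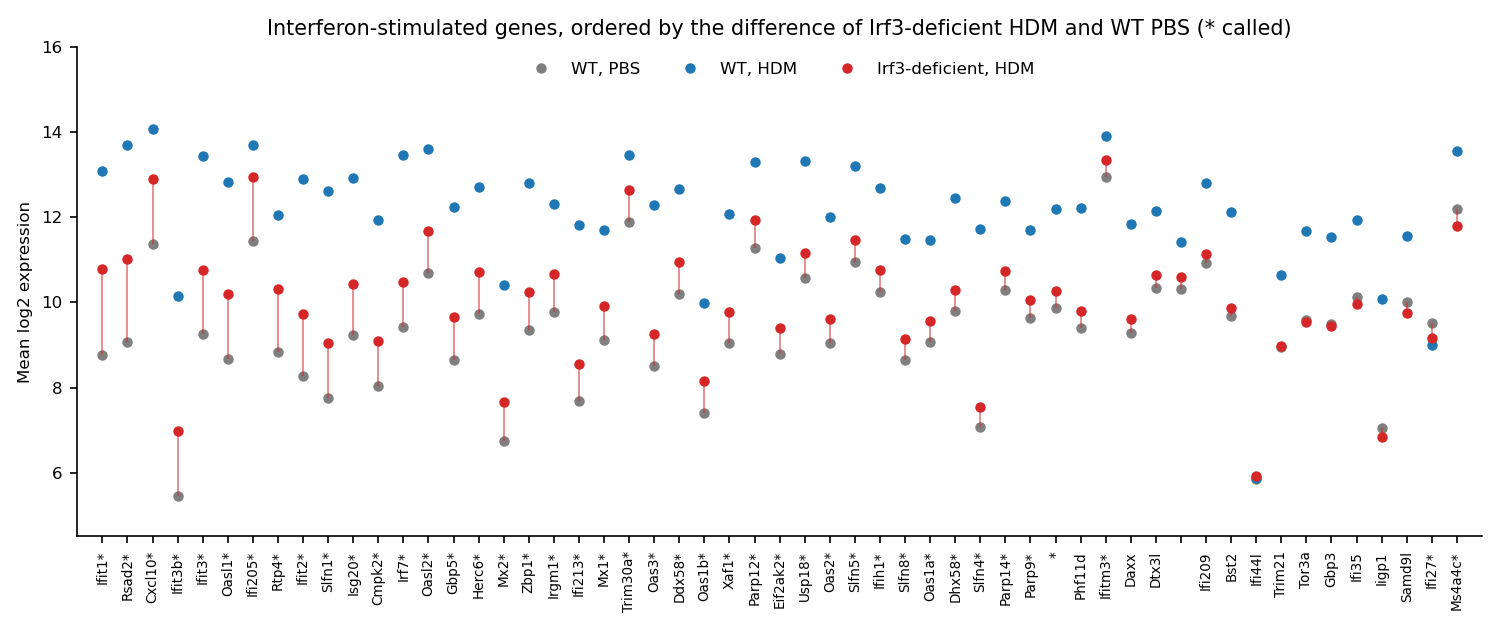
The 55 measured interferon-stimulated genes are ordered by their log2 difference between treated Irf3-deficient and PBS-treated WT cells, with mean log2 expression on the y axis, 1 point per group and an asterisk on called genes; some genes are plotted without a name. Red points (Irf3-deficient, HDM) lie between grey (WT, PBS) and blue (WT, HDM) points for most genes, as for Ifit1 with means of 8.76, 10.78 and 13.09.

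The 3 type I interferon genes named here did not pass between treated Irf3-deficient and PBS-treated WT cells. Ifnb1, which encodes interferon-β, read 6.35 and 6.72 in the PBS pools, 7.69 and 7.95 in the treated WT pools, and 6.53, 6.15 and 6.60 in the Irf3-deficient pools. Its log2 difference was -0.11 (SE 0.15, 95% confidence interval -0.43 to 0.22, adjusted p = 0.744), and the groups overlapped. Without PBS pool 2 or Irf3-deficient pool 2 its sign turned (0.08 and 0.03). Ifna2 and Ifna4 also overlapped, and were higher in treated WT cells: Ifna4 read 6.14 and 6.15, then 7.14 and 7.12, then 6.22, 6.12 and 6.33. Ifnb1 lay above only 28.2% of all genes, so its levels are near the dim end of the arrays.

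Of 22 measured genes of the IRF3 pathway, including Irf3 and Irf7, 4 rose (18.2%, against 5.89% of all genes) and 2 fell (9.09%, against 4.91%), with a median of 0.04. The 2 falls were Irf3, the gene lacking by genotype, and Tlr4, so the share lower counts the targeted gene itself. Tank, an adaptor that binds the IRF3 kinases, rose by 0.51 (SE 0.08), from 11.79 and 11.75 to 12.28, 12.28 and 12.27. The treated WT pools both read 12.42, close to the Irf3-deficient pools. Ikbke, an IRF3 kinase, rose by 0.63 (adjusted p = 0.00432, and 0.0708 without PBS pool 1), while its relative Tbk1 differed by 0.12 (adjusted p = 0.685). Tlr4, the lipopolysaccharide receptor, fell by 0.61, from 8.93 and 8.42 to 8.24, 7.95 and 7.99, with no call without PBS pool 1 (adjusted p = 0.237), Irf3-deficient pool 2 (0.0727) or pool 3 (0.0624). The treated WT pools, at 7.98 and 8.11, lay at the same low level of Tlr4. The 4 rises were 2 without PBS pool 1. The 2 falls were 4 without Irf3-deficient pool 1, and 1 without PBS pool 1, Irf3-deficient pool 2 or Irf3-deficient pool 3.

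Most maturation and migration genes rose. Of 37 measured members 28 rose (75.7%, against 5.89% of all genes) and 0 fell, with a median of 0.59. Of these genes 32 were, in treated WT cells, higher than in PBS-treated cells, with a median of 1.07, and 24 were lower and 3 higher in treated Irf3-deficient than in treated WT cells. The mean over the list was 11.10 and 11.15 in the PBS pools, 12.17 and 12.16 in the treated WT pools, and 11.67, 11.72 and 11.81 in the Irf3-deficient pools. On leaving out 1 array between 19 and 29 members rose.

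Il2ra, the α chain of the IL-2 receptor and a marker of activated dendritic cells, read 10.96 and 11.08 in the PBS pools, 13.27 and 13.35 in the treated WT pools, and 12.66, 12.66 and 12.70 in the Irf3-deficient pools. It rose 3.14-fold (2.78 to 3.56, adjusted p = 2.48e-07), with no overlap between any of the groups. Cd40, through which T cells license dendritic cells, rose 2.00-fold (1.68 to 2.37, adjusted p = 0.000217), from 11.73 and 12.07 to 12.74, 12.88 and 13.07. Cd40 in the treated WT pools read 13.50 and 13.41, above all others. Cd274, which encodes the inhibitory ligand PD-L1, rose by 1.17 (SE 0.08), and Pdcd1lg2, which encodes PD-L2, by 0.98 (SE 0.17). Cd200, Serpinb9 and Tnfrsf9, named after their values were seen, rose by 1.43, 1.31 and 1.18.

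The costimulatory ligands Cd80 and Cd86 and the migration receptor Ccr7 rose as well. Cd80 rose by 0.54 (SE 0.08), from 12.65 and 12.79 to 13.20, 13.29 and 13.28, with treated WT pools at 13.23 and 13.31. Cd86 rose by 0.61 (SE 0.11), from 11.95 and 11.96 to 12.33, 12.58 and 12.76, with treated WT pools at 13.07 and 12.97. The Irf3-deficient pools thus reached the treated WT level of Cd80 but stayed below that of Cd86, whose call was lost without PBS pool 1 (adjusted p = 0.0559). Ccr7, through which dendritic cells find the lymph node, rose by 0.46 (SE 0.06), from 13.58 and 13.63 to 14.04, 14.12 and 14.05. Treated Irf3-deficient and treated WT cells differed in Ccr7 by -0.10 (adjusted p = 0.336), at levels near the top of the arrays' range, where a difference could be missed.

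Of the members without a call, Relb, an NF-κB subunit of mature dendritic cells, read 10.17 and 10.25 in the PBS pools, 11.28 and 11.29 in the treated WT pools, and 10.13, 10.32 and 10.49 in the Irf3-deficient pools. Tnfrsf4, which encodes OX40, read 8.74 and 8.95, then 10.55 and 10.33, then 9.02, 8.89 and 8.99. For both the Irf3-deficient pools overlapped the PBS pools. Cd83 overlapped in all 3 groups, with means of 13.76, 13.82 and 13.82, near the top of the arrays' range, where a difference could be missed. Il15ra, a called member that presents IL-15 to T and NK cells, rose by 0.76 (SE 0.10). Its ligand Il15, from the list of inflammatory cytokines, read 9.22 and 8.99 in the PBS pools, 11.15 and 11.65 in the treated WT pools, and 8.71, 8.80 and 8.58 in the Irf3-deficient pools. All Irf3-deficient pools were lower than the PBS pools in Il15, at -0.41 (SE 0.15), without passing the test (adjusted p = 0.104).

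**Figure D3:**
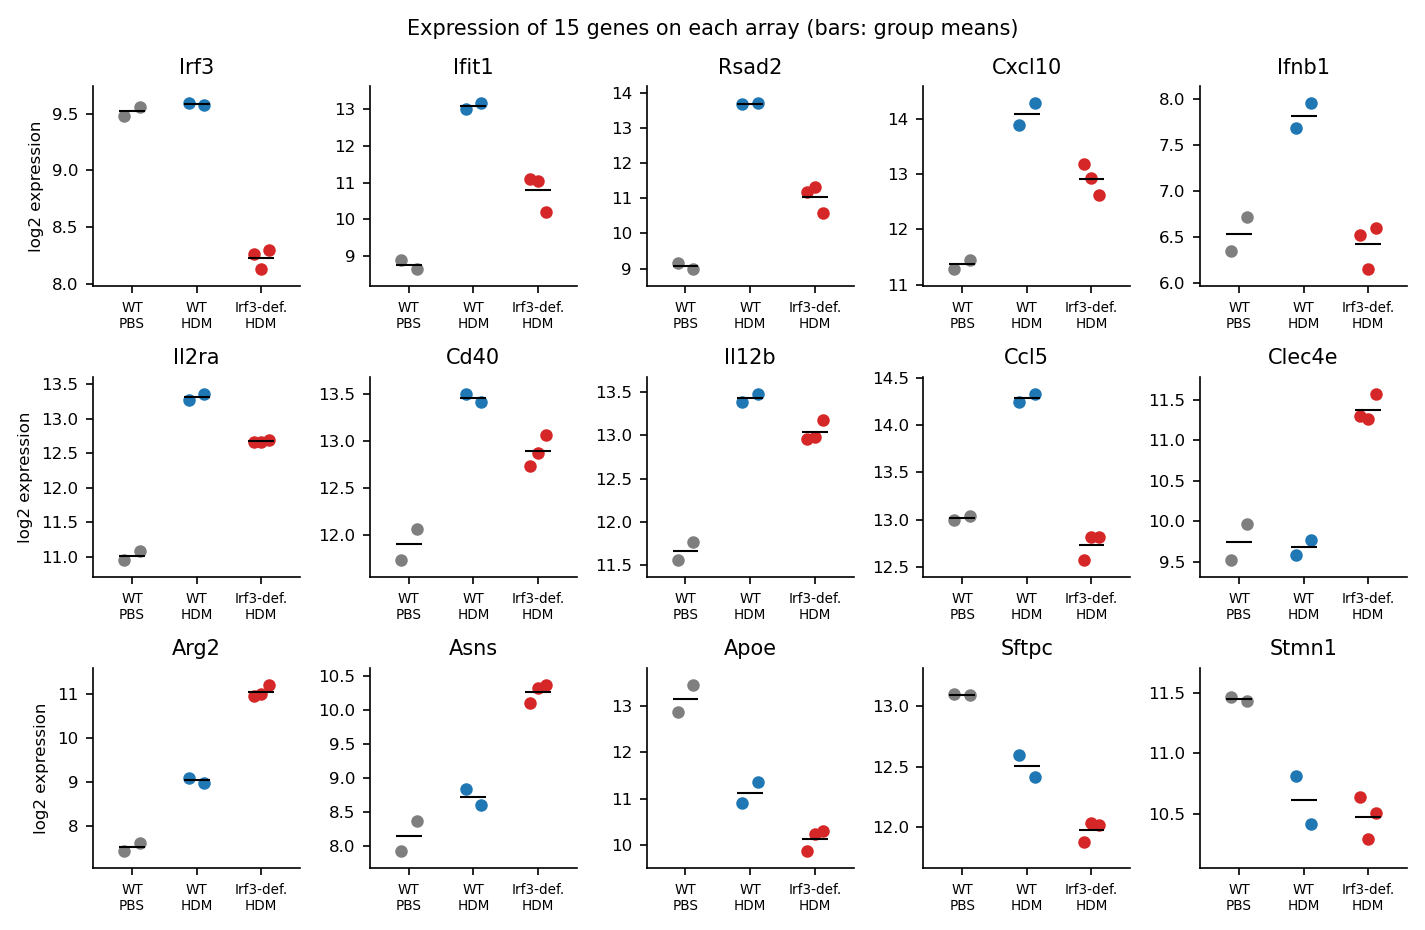
Log2 expression of 15 genes on each of the 7 arrays is plotted by group, with a black bar at each group mean and a y axis of its own per gene. Il2ra and Ifit1 lie between the WT groups in Irf3-deficient cells, Clec4e and Arg2 lie above both, Ccl5 lies below the PBS pools, and Ifnb1 overlaps them.

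Of 32 measured T helper 2 priming signals, 11 rose (34.4%, against 5.89% of all genes) and 2 fell, with a median of 0.15. Treated WT cells had 7 members higher and 9 lower than in PBS-treated cells, with a median of -0.07. The 11 rises were 4 without PBS pool 1 and 7 without PBS pool 2 or without Irf3-deficient pool 2, and the 2 falls were 1 without any of these or Irf3-deficient pool 3. Ccl17 and Ccl22, the ligands of CCR4 on T helper 2 cells, rose by 0.31 (SE 0.06) and 0.51 (SE 0.07). Ccl22 read 13.59 and 13.69 in the PBS pools, 14.09 and 14.15 in the treated WT pools, and 14.09, 14.17 and 14.19 in the Irf3-deficient pools. The treated pools of both genotypes overlapped for Ccl22 and lay above the PBS pools. These levels are near the top of the arrays' range, where a difference between the treated groups could be missed. Ccl17 lost its call without PBS pool 1 (adjusted p = 0.1) and was among the brightest genes of the arrays, at 14.21 or above on all 7.

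Jag1, a Notch ligand, rose by 0.69 (SE 0.13), from 9.10 and 9.34 to 9.73, 9.92 and 10.09. The treated WT pools, at 9.27 and 9.23, lay within the PBS range, so Jag1 was higher in the Irf3-deficient pools than on all 4 WT arrays. Its call was lost without PBS pool 1 (adjusted p = 0.0759). Il7r, a chain shared by the receptors of IL-7 and TSLP, rose by 0.69 (SE 0.11), from 11.45 and 11.61 to 12.11, 12.20 and 12.34. Alox5ap, which hands arachidonate to 5-lipoxygenase in leukotriene synthesis, fell by 0.59 (SE 0.09), from 12.78 and 12.76 to 12.30, 12.16 and 12.07. Il7r and Alox5ap in treated WT cells, at 12.56 and 12.28 and at 12.18 and 12.28, had moved the same way.

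Tnfsf4, which encodes OX40L, read 7.37 and 7.18 in the PBS pools, 8.19 and 8.57 in the treated WT pools, and 7.38, 7.40 and 7.58 in the Irf3-deficient pools. It did not pass against PBS (0.17, adjusted p = 0.488). Il33, an alarmin that is mainly epithelial, overlapped between the groups (-0.18, adjusted p = 0.488). Irf4, the transcription factor of cDC2s that prime T helper 2 cells, differed by 0.23 (SE 0.11, adjusted p = 0.229). For Il10 all Irf3-deficient pools, at 8.47, 8.53 and 8.75, lay above the PBS pools at 7.84 and 8.22, with a difference of 0.56 (SE 0.22) that did not pass (adjusted p = 0.14).

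Among 40 measured inflammatory cytokines and chemokines, 14 rose (35.0%) and 1 fell, with a median of 0.27. Treated WT cells had 17 members higher and 5 lower than in PBS-treated cells, with a median of 0.32. The 14 rises were 9 without PBS pool 1. Cxcl3, a neutrophil chemokine, rose most, 3.93-fold (3.09 to 5.0, adjusted p = 1.66e-05). It read 8.34 and 8.54 in the PBS pools, 9.27 and 9.69 in the treated WT pools, and 10.22, 10.32 and 10.70 in the Irf3-deficient pools, which lay above all WT pools. Inhba, the activin βA chain, rose 3.57-fold (2.73 to 4.66), from 7.57 and 8.04 to 9.55, 9.39 and 9.98. PBS pool 1 was dim for Inhba, with no stated background, so the size of its fold is uncertain.

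Il12b, the p40 chain shared by IL-12 and IL-23, read 11.56 and 11.76 in the PBS pools, 13.38 and 13.47 in the treated WT pools, and 12.96, 12.98 and 13.18 in the Irf3-deficient pools. It rose 2.60-fold (2.25 to 3.00, adjusted p = 4.46e-06). Of its partner chains, Il23a (p19) rose by 1.34 (SE 0.17), from 7.76 and 8.36 to 9.21, 9.37 and 9.60, while Il12a (p35) overlapped between the groups at 0.15 (adjusted p = 0.441). Il23a was higher in the Irf3-deficient pools than in the treated WT pools, at 8.58 and 8.74, and Il12b was lower. Il27, of the same cytokine family, read 8.20 and 8.49 in the PBS pools, 9.22 and 9.74 in the treated WT pools and 8.47, 8.41 and 8.46 in the Irf3-deficient pools, with no difference from PBS that passed (0.10, adjusted p = 0.768).

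The monocyte chemokines Ccl2 and Ccl7 were higher in the Irf3-deficient pools than on all 4 WT arrays. Ccl7 read 11.20 and 11.64 in the PBS pools, 10.64 and 11.27 in the treated WT pools, and 12.28, 12.36 and 12.47 in the Irf3-deficient pools. Ccl7 rose by 0.95 (SE 0.17) and Ccl2 by 0.66 (SE 0.15), and both calls were lost without PBS pool 1 (adjusted p = 0.0796 and 0.193). Il1rn, the IL-1 receptor antagonist, rose by 1.29 (SE 0.15) and Csf1 by 0.98 (SE 0.12), each to the level of the treated WT pools. Tnf rose by 0.50 (adjusted p = 0.0201), a call lost without PBS pool 1 (0.182), PBS pool 2 (0.07), Irf3-deficient pool 2 (0.0501) or pool 3 (0.074).

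Ccl4 and Ccl5, chemokines that draw T cells and monocytes, stood on the other side. Ccl4 read 10.87 and 10.72 in the PBS pools, 11.42 and 11.71 in the treated WT pools, and 10.09, 10.13 and 9.92 in the Irf3-deficient pools. It fell by 0.75 (SE 0.12, adjusted p = 0.00165), whereas it was higher in treated than in PBS-treated WT cells by 0.77 (adjusted p = 0.00117). Ccl5 read 13.00 and 13.04, then 14.25 and 14.32, then 12.58, 12.82 and 12.81, with a difference from PBS of -0.28 (SE 0.09) that narrowly missed the threshold (adjusted p = 0.0587). Il6 read 10.51 and 10.08 in the PBS pools, 11.22 and 12.03 in the treated WT pools, and 10.94, 11.10 and 10.80 in the Irf3-deficient pools, a difference of 0.65 (SE 0.20, adjusted p = 0.0556). Il1b, Ccl3 and Cxcl2 differed by 0.15, 0.16 and 0.37 without passing. The levels of Il1b and Ccl3 were near the top of the arrays' range, where a difference could be missed.

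Of 22 measured NF-κB subunits, inhibitors and targets, 6 rose (27.3%, against 5.89% of all genes) and 0 fell, with a median of 0.27, and 20 of the 22 differences were positive. The count was 1 without PBS pool 1 and 3 without Irf3-deficient pool 2 or pool 3. Birc2, an inhibitor of apoptosis that controls the alternative NF-κB pathway, rose by 0.65 (SE 0.11), from 10.22 and 9.97 to 10.69, 10.79 and 10.76, with treated WT pools at 11.43 and 11.52. The inhibitor Nfkbib rose by 0.49 (SE 0.08; adjusted p = 0.00231, and 0.0513 without PBS pool 1). In treated WT cells 11 of the 22 were higher than in PBS-treated cells.

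MHC class I genes as a list lay nearer to the PBS-treated than to the treated WT cells. Of 16 measured members 3 rose (18.8%, against 5.89% of all genes) and 0 fell, with a median of 0.07. In treated WT cells 11 were higher than in PBS-treated cells, with a median of 1.09. Treated Irf3-deficient cells differed from treated WT cells by a median of -1.13. Tap1, the peptide transporter, read 11.23 and 11.12 in the PBS pools, 12.71 and 12.60 in the treated WT pools and 11.15, 11.19 and 11.30 in the Irf3-deficient pools. The immunoproteasome subunit Psmb9 read 10.53 and 10.59, then 12.21 and 12.06, then 10.48, 10.50 and 10.50. Both were named after their values were seen, and neither differed from PBS by more than 0.07 (adjusted p = 0.858 and 0.747). The 3 that rose were Psme2, Canx and Nlrc5, and without PBS pool 1 the count was 1. Psme2, a proteasome activator subunit, rose by 0.60 (SE 0.10), from 12.22 and 12.52 to 12.90, 13.00 and 13.03. Nlrc5, the transactivator of MHC class I genes, rose by 0.52 (SE 0.11), a call lost without PBS pool 1 (adjusted p = 0.137). Its 19 probesets disagreed, differing by -0.11 to 0.52, and their mean differed by 0.16 (adjusted p = 0.374). Canx, a chaperone, lost its call without PBS pool 1 (0.133) or Irf3-deficient pool 2 (0.0563).

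Of 13 measured MHC class II genes 0 rose and 1 fell. H2-Aa, H2-Ab1, H2-Eb1 and Cd74 differed by -0.02 to -0.06, at levels near the top of the arrays' range. Ctss, the protease that trims the invariant chain, fell by 0.53 (SE 0.10), from 13.13 and 12.96 to 12.38, 12.60 and 12.55, with treated WT pools at 13.03 and 13.32. The call of Ctss was lost without PBS pool 1 (adjusted p = 0.106), and 2 members fell without either treated WT pool.

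Pattern recognition receptors and lectins, the proteins through which extract components are sensed, showed 7 rises and 3 falls among 27 measured members, with a median of 0.10. Treated WT cells had 3 members higher and 17 lower than in PBS-treated cells, with a median of -0.47, and 18 were higher in treated Irf3-deficient than in treated WT cells. Clec4e, which encodes Mincle, a receptor for fungal and mycobacterial glycolipids, read 9.52 and 9.96 in the PBS pools, 9.59 and 9.78 in the treated WT pools, and 11.30, 11.27 and 11.57 in the Irf3-deficient pools. It rose 3.11-fold (2.51 to 3.85, adjusted p = 2.84e-05) while the WT groups overlapped. Clec4d, its partner receptor, rose 2.04-fold (1.73 to 2.40, adjusted p = 0.000129), from 8.64 and 8.83 to 9.75, 9.71 and 9.82, with treated WT pools below PBS at 8.19 and 8.33.

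Clec4n, which encodes Dectin-2, a receptor for HDM glycans, rose by 0.55, from 10.90 and 10.98 to 11.44, 11.43 and 11.59, and lost its call without PBS pool 1 (adjusted p = 0.0559). Cd209d, a relative of DC-SIGN, rose by 0.65 (SE 0.10), from 11.62 and 11.66 to 12.43, 12.19 and 12.25. In treated WT cells Cd209d stood lowest, at 10.11 and 10.23. Mrc1, the mannose receptor, fell by 0.49 (SE 0.10), from 12.11 and 12.09 to 11.60, 11.67 and 11.55, with treated WT pools far lower at 10.20 and 10.49. Its call was lost without PBS pool 1 (0.0955) or PBS pool 2 (0.0573). The 7 rises were 3 without PBS pool 1 and 4 without PBS pool 2, Irf3-deficient pool 2 or Irf3-deficient pool 3, and the 3 falls were 0 without PBS pool 1, 1 without PBS pool 2 or Irf3-deficient pool 2 and 2 without Irf3-deficient pool 1 or pool 3.

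**Figure D4:**
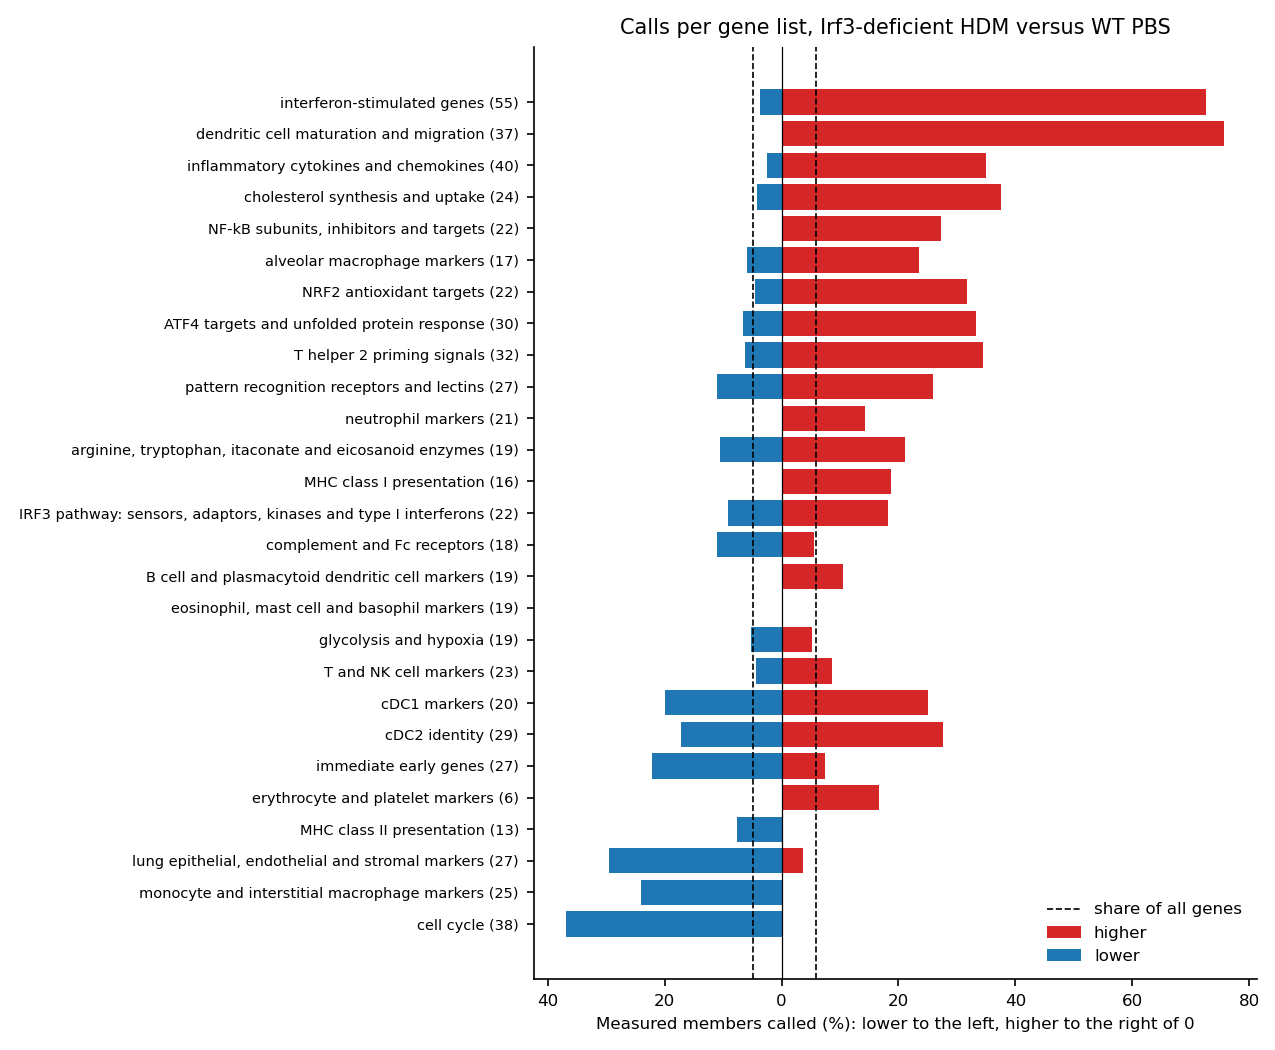
Bars give the percentage of each list's measured members (number in brackets) called lower, to the left of 0, or higher, to the right, between treated Irf3-deficient and PBS-treated WT cells, with lists ordered by median difference. Dashed lines mark the shares of all genes, 4.91% lower and 5.89% higher. The highest shares called higher belong to maturation (75.7%) and interferon-stimulated genes (72.7%), and the highest share called lower to the cell cycle (36.8%).

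The cDC2 identity genes split, with 8 of 29 higher and 5 lower and a median of -0.02. Without PBS pool 1 these counts were 2 and 0, without PBS pool 2 they were 4 and 0, without Irf3-deficient pool 2 or pool 3 they were 5 and 1, and without Irf3-deficient pool 1 they were 7 and 3. Csf2rb, the signalling chain of the GM-CSF receptor, rose by 0.45 (adjusted p = 0.00532, and 0.098 without PBS pool 1), from 12.64 and 12.86 to 13.21, 13.18 and 13.19. Itgam, the integrin of the gate, read 12.11 and 12.02 in the PBS pools, 10.92 and 11.10 in the treated WT pools, and 11.74, 11.81 and 11.64 in the Irf3-deficient pools. The call of Itgam was lost on leaving out any 1 of the 5 compared arrays (0.0634 to 0.287). Sirpa, Itgax, Cd209a and Mgl2 overlapped between treated Irf3-deficient and PBS-treated WT cells, and Flt3, the growth factor receptor of dendritic cells, differed by -0.34 without passing (adjusted p = 0.157).

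Monocyte and interstitial macrophage markers were lower where they passed at all. Of 25 measured, 6 fell (24.0%, against 4.91% of all genes) and 0 rose, with a median of -0.35. Of the same genes 19 were, in treated WT cells, lower and 3 higher than in PBS-treated cells, with a median of -1.22. The mean over the list was 11.06 and 11.27 in the PBS pools, 10.10 and 10.44 in the treated WT pools, and 10.72, 10.82 and 10.70 in the Irf3-deficient pools. All 3 Irf3-deficient pools lay below the PBS pools. In bulk RNA, fewer cells of a type and less RNA per cell cannot be told apart.

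Apoe, the lipid carrier of macrophages, fell most among the genes of this list, 8.17-fold (6.23 to 10.7, adjusted p = 1.41e-06). It read 12.88 and 13.45 in the PBS pools, 10.91 and 11.36 in the treated WT pools, and 9.87, 10.24 and 10.29 in the Irf3-deficient pools. Treated Irf3-deficient cells were lower than treated WT cells too, by 1.00 (adjusted p = 0.00164). F13a1, a transglutaminase of monocytes and resident macrophages, fell 2.76-fold (2.17 to 3.50), from 9.91 and 9.92 to 8.41, 8.81 and 8.14. Adgre1, an adhesion receptor of macrophages, and the scavenger receptor Cd163, named after their values were seen, fell by 0.88 and 0.90. The defining macrophage genes Mertk and Fcgr1 did not follow: Mertk read 9.08 and 9.52 in the PBS pools and 9.35, 9.14 and 9.31 in the Irf3-deficient pools. C1qa, C1qb and C1qc, complement genes of macrophages, differed by -0.62, 0.32 and -0.42 without passing.

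Markers of other cells moved in places. Markers of lung epithelium, endothelium and stroma fell in 8 of 27 and rose in 1, with a median of -0.29 and list means of 9.21 and 9.43 in the PBS pools, 9.25 and 8.96 in the treated WT pools, and 8.95, 8.96 and 9.01 in the Irf3-deficient pools. Sftpc, the surfactant protein of alveolar type 2 cells, read 13.10 and 13.09 in the PBS pools, 12.60 and 12.42 in the treated WT pools, and 11.88, 12.03 and 12.02 in the Irf3-deficient pools. It fell 2.17-fold (1.90 to 2.48, adjusted p = 1.54e-05), and Sftpb fell by 0.99 (SE 0.10). Sftpc, an RNA of epithelial cells, lay above 98.0% of all genes in these sorted dendritic cells, and both genes were lowest in the Irf3-deficient pools. Their part in other differences was not tested. The 8 falls were 5 without PBS pool 1, 3 without PBS pool 2 and 4 without Irf3-deficient pool 3. Epcam, which dendritic cells can express as well, rose by 0.84 (SE 0.12), from 9.96 and 9.96 to 10.79, 10.78 and 10.83, with treated WT pools at 9.23 and 8.80.

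The remaining cell type lists gave small counts. Neutrophil markers rose in 3 of 21, led by Lcn2, an iron-scavenging protein also made by stimulated myeloid cells, which rose 4.02-fold (3.34 to 4.84, adjusted p = 1.63e-06), from 9.18 and 9.59 to 11.45, 11.41 and 11.32. Trem1, an amplifier of myeloid activation, rose by 0.81 (SE 0.13). The defining neutrophil genes Ly6g and S100a8 did not pass, at 5.61 and 6.31 in the PBS pools on average and 5.69 and 6.08 in the Irf3-deficient pools. Alveolar macrophage markers rose in 4 of 17 and fell in 1, or 2 and 0 without PBS pool 1, 3 and 0 without PBS pool 2, and 4 and 2 without Irf3-deficient pool 1. Siglecf, a defining alveolar macrophage gene, did not pass (-0.23, adjusted p = 0.179). Olr1, a receptor for oxidised lipoprotein, rose by 1.49 (SE 0.15), and Fabp4, a fatty acid carrier, by 1.43 (SE 0.20).

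Of 20 cDC1 markers 5 rose and 4 fell, with Itgb8 (1.56, SE 0.15) and Ly75 (1.20, SE 0.13) rising most and Wdfy4, which cDC1s need for cross-presentation, falling by 1.05 (SE 0.14). The defining cDC1 genes Xcr1 and Clec9a did not pass (0.39 and 0.03). These counts were 2 and 2 without PBS pool 1, 3 and 3 without PBS pool 2, 2 and 3 without Irf3-deficient pool 2, and 2 and 4 without Irf3-deficient pool 3. T and NK cell markers showed 2 rises and 1 fall among 23 (8.7% and 4.35%, near the 5.89% and 4.91% of all genes), and Cd3e did not pass. The 2 rises were 1 without any array but PBS pool 2, and the 1 fall was 3 without Irf3-deficient pool 1. Klrd1 (CD94), on NK cells and some dendritic cells, fell by 1.42 (SE 0.23), from 11.79 and 10.86 to 9.66, 10.15 and 9.91. B cell and plasmacytoid markers rose in 2 of 19, Ccr9 and Tcf4, with Cd79a and Siglech not passing. Eosinophil, mast cell and basophil markers had 0 calls in limma among 19, 2 of them with an unadjusted p under 0.05, and a median of 0.03. Of 6 erythrocyte and platelet markers 1 rose, the platelet chemokine Ppbp. The calls of Tcf4 and Ppbp were lost without PBS pool 1 (adjusted p = 0.119 and 0.138) or PBS pool 2 (0.0865 and 0.0726), that of Tcf4 also without Irf3-deficient pool 2 (0.087). Complement and Fc receptor genes showed 1 rise (5.56%, near the 5.89% of all genes) and 2 falls (11.1%, against 4.91%) among 18. The 2 falls were 0 without any 1 of the 5 compared arrays, and the counts were 2 and 3 without either treated WT pool.

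Genes of arginine, tryptophan, itaconate and eicosanoid metabolism gave 4 rises and 2 falls among 19. Arg2, the mitochondrial arginase, read 7.44 and 7.62 in the PBS pools, 9.09 and 8.98 in the treated WT pools, and 10.94, 10.99 and 11.19 in the Irf3-deficient pools. It rose 11.4-fold (9.56 to 13.6, adjusted p = 6.12e-09), and treated Irf3-deficient cells exceeded treated WT cells 3.99-fold (adjusted p = 2.07e-07). The groups did not overlap. Both PBS pools lay below their arrays' medians over the compared genes (7.88 and 7.94). With no stated background, the size of the 11.4-fold rise is uncertain. Acod1, which makes itaconate, rose 3.95-fold (2.98 to 5.22, adjusted p = 5.41e-05), from 7.19 and 7.94 to 9.53, 9.36 and 9.75, with treated WT pools at 9.97 and 10.14. PBS pool 1 was dim for Acod1 too, so the size of its fold is uncertain. The cytosolic arginase Arg1 and the nitric oxide synthase Nos2 differed by 0.25 and 0.13 without passing. Without PBS pool 2 the 4 rises were 2, and the 2 falls were 1 without PBS pool 1 or PBS pool 2.

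Of 30 measured ATF4 targets and unfolded protein response genes, 10 rose (33.3%) and 2 fell, with a median of 0.17. The 10 rises were 2 without PBS pool 1 and 6 without Irf3-deficient pool 2 or pool 3. Asns, asparagine synthetase and a target of ATF4, the factor of amino acid and stress signalling, read 7.93 and 8.37 in the PBS pools, 8.84 and 8.61 in the treated WT pools, and 10.10, 10.32 and 10.36 in the Irf3-deficient pools. It rose 4.31-fold (3.48 to 5.34, adjusted p = 3.72e-06), to above all WT pools. Slc7a11, the cystine importer under both ATF4 and NRF2, rose 3.30-fold (2.60 to 4.19), from 10.24 and 10.38 to 11.75, 11.92 and 12.42. Slc7a11 in treated WT pools, at 11.02 and 11.13, lay between the other groups.

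The chains of the large neutral amino acid carrier, Slc7a5 and Slc3a2, rose by 0.66 and 0.56, calls lost without PBS pool 1 (adjusted p = 0.0505 and 0.0597). Other ATF4 targets, Trib3, Ddit3 and Psat1, differed by 0.11, 0.12 and 0.15 without passing, as did the endoplasmic reticulum chaperone Hspa5 (-0.04). Hsp90b1, another such chaperone, fell by 0.35, a call lost without PBS pool 1 (0.172) or Irf3-deficient pool 2 (0.0552).

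NRF2 antioxidant targets rose in 7 of 22 and fell in 1, with a median of 0.18, against 4 and 1 in treated WT cells. Besides Slc7a11, Gclm, a subunit of the enzyme that starts glutathione synthesis, rose 2.01-fold (1.61 to 2.51, adjusted p = 0.00101), from 9.74 and 10.08 to 10.93, 10.67 and 11.15. Gclm in treated WT pools read 9.75 and 9.61, within or below the PBS range. Txnrd1 and Nqo1 rose by 0.63 and 0.46, calls lost without PBS pool 1 (adjusted p = 0.155 and 0.133), and Hmox1 did not pass (0.44, adjusted p = 0.308). The 7 rises were 3 without PBS pool 1 and 4 without Irf3-deficient pool 2 or pool 3.

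Cholesterol synthesis and uptake genes rose in 9 of 24 (37.5%) and fell in 1, with a median of 0.27. Treated against PBS-treated WT cells, 13 were higher and 1 lower, with a median of 0.44. Idi1, the isopentenyl diphosphate isomerase, rose 2.72-fold (2.40 to 3.09, adjusted p = 1.1e-06), from 11.11 and 11.18 to 12.63, 12.61 and 12.54. Its treated WT pools, at 12.37 and 12.32, lay just below the Irf3-deficient pools. Sqle, squalene epoxidase, rose by 0.81 (SE 0.10), from 10.13 and 10.33 to 10.98, 11.03 and 11.10. The sterol transporters Abca1 and Abcg1, targets of liver X receptors, differed by -0.24 and -0.35 without passing. Glycolysis and hypoxia genes had 1 rise and 1 fall among 19, shares near those of all genes. The 1 rise was 0 without any 1 of the compared arrays but Irf3-deficient pool 1 and 2 without either treated WT pool, and the fall was 0 without PBS pool 1.

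Cell cycle genes were lower where they passed. Of 38 measured, 14 fell (36.8%, against 4.91% of all genes) and 0 rose, with a median of -0.37, and in treated WT cells 18 were lower than in PBS-treated cells, with a median of -0.49. Stmn1, a microtubule regulator of dividing cells, fell 1.96-fold (1.60 to 2.39, adjusted p = 0.000716), from 11.47 and 11.43 to 10.64, 10.29 and 10.51. Its treated WT pools, at 10.81 and 10.42, overlapped the Irf3-deficient pools. Birc5 (survivin) fell by 0.81, Top2a by 0.85 and Rrm2 by 0.82, and all 3 calls were lost without PBS pool 1 (adjusted p = 0.0588, 0.18 and 0.0932), that of Rrm2 also without PBS pool 2 (0.0625). The proliferation marker Mki67 differed by -0.24 without passing (adjusted p = 0.216). The list mean was 10.07 and 9.93 in the PBS pools, 9.60 and 9.47 in the treated WT pools, and 9.85, 9.41 and 9.61 in the Irf3-deficient pools. The 14 falls were 1 without PBS pool 1, 9 without PBS pool 2, 6 without Irf3-deficient pool 2 and 9 without Irf3-deficient pool 3, so this count depends on single pools.

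Immediate early genes, the transcription factors that follow a stimulus or tissue handling within minutes, fell in 6 of 27 and rose in 2, with a median of -0.09. Ier2 fell by 0.91 (SE 0.13), from 10.87 and 10.49 to 9.86, 9.78 and 9.67, and the treated WT pools read 10.32 and 10.57. Fos fell by 0.45, a call lost without PBS pool 1 (adjusted p = 0.104), while Jun and Egr1 differed by -0.05 and -0.04. Nr4a3, a nuclear receptor of dendritic cell migration, rose by 0.71 (SE 0.09), from 12.66 and 12.84 to 13.46, 13.45 and 13.48, like the treated WT pools at 13.45 and 13.66. The 6 falls were 1 without PBS pool 1.

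Many of the largest falls belonged to short or non-polyadenylated RNAs. Among 15 falls named by size, 9 were of small noncoding RNAs or a histone gene, such as Scarna13, Snord73b and H2ac4. Classes defined by gene symbol after the values were seen gave 29 of 67 small noncoding RNAs lower (43.3%) and 0 higher, against 4.91% and 5.89% of all genes, 13 of 26 replication-dependent histone genes lower and 1 higher, 29 of 58 cytosolic ribosomal protein genes lower and 0 higher, and 27 of 75 respiratory chain subunits lower and 1 higher. The median differences were -0.62, -0.41, -0.34 and -0.26. Treated WT cells had 1 lower gene in each class against PBS.

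The mean over the small noncoding RNAs was 9.69 and 9.25 in the PBS pools, 9.34 and 9.94 in the treated WT pools, and 8.63, 8.83 and 8.90 in the Irf3-deficient pools. The Irf3-deficient pools were lowest, and the pools of each WT group differed from each other as well. The falls were 12, 5, 15 and 7 genes in the 4 classes without PBS pool 1. RNA quality values are not given in the sources used here, and the part of RNA preparation in these falls was not tested. Taking the genes of these classes other than the respiratory chain out of the count, a choice made after seeing the data, left 2081 called genes, 1174 higher and 907 lower. The other genes were neither refitted nor adjusted anew, so their calls could not change. None of the 40 interferon-stimulated and 28 maturation genes called higher or the 14 cell cycle genes called lower was among those taken out.

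Scarna13, a guide RNA of the Cajal body, read 11.65 and 11.59 in the PBS pools, 11.61 and 11.71 in the treated WT pools, and 9.06, 9.08 and 10.18 in the Irf3-deficient pools. It fell 4.54-fold (3.09 to 6.65, adjusted p = 0.000242), and the 4 WT pools lay close together. Snora16a fell as well, by 1.84, but its PBS pools read 10.90 and 9.37, and the call was lost on leaving out any of 4 arrays (adjusted p up to 0.439). Rps21, a ribosomal protein gene, fell by 1.61 with PBS pools at 11.40 and 10.55, a call lost without PBS pool 1 (0.076). Uqcrh, a subunit of respiratory complex III named after its values were seen, fell by 1.25 (SE 0.12), from 12.00 and 11.86 to 10.58, 10.75 and 10.72, with treated WT pools at 11.98 and 11.61.

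**Figure D5:**
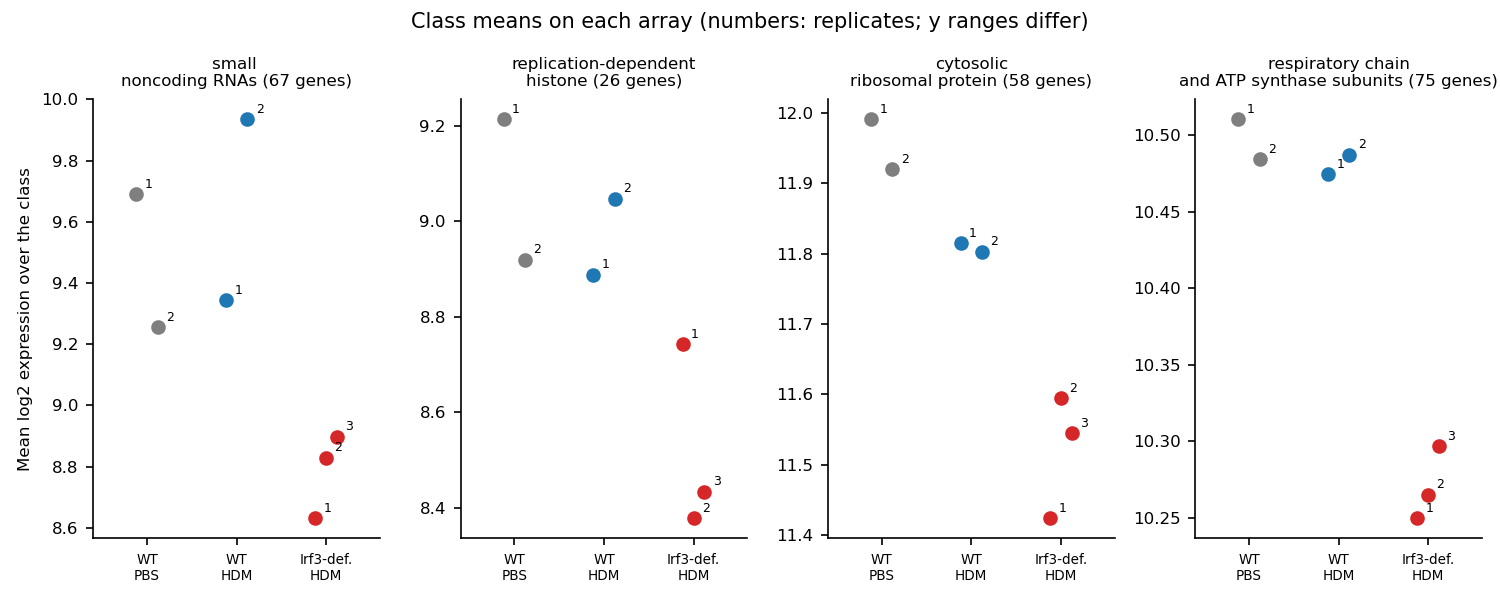
Each panel gives the mean log2 expression of 1 gene class on each array, with the replicate number beside each point and a y range of its own. The 3 Irf3-deficient pools lie below the WT pools in all 4 classes, and the small noncoding RNAs differ between PBS pools 1 and 2 (9.69 and 9.25).

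Several of the largest single differences were in genes whose WT pools, PBS-treated and treated, lay close together. St6galnac2, a sialyltransferase, read 8.16 and 8.48 in the PBS pools, 8.18 and 8.09 in the treated WT pools, and 12.03, 11.79 and 11.65 in the Irf3-deficient pools. It rose 11.4-fold (9.29 to 13.9, adjusted p = 2.42e-08), and the difference between the WT groups did not pass (-0.18, adjusted p = 0.495). Cygb, the oxygen-binding protein cytoglobin, rose 4.79-fold (3.94 to 5.83), from 8.39 and 8.51 to 10.79, 10.89 and 10.46, with treated WT pools at 8.60 and 8.63.

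These 2 genes lie near each other, with 2 measured genes between them in the RefSeq order. Of the 20 measured genes around St6galnac2, 10 on each side, 6 rose, Cygb among them. Rnf157 alone fell, with a difference of -0.53, or -0.48 without PBS pool 1. Over all genes 5.89% rose and 4.91% fell. The window was placed around St6galnac2 after its large rise was seen, so setting its counts against these shares is no test. BC018473, a transcript known by a clone symbol and the next gene after St6galnac2, rose by 6.67 (adjusted p = 1.37e-09), from 6.41 and 6.45 to 13.44, 13.21 and 12.65, with treated WT pools at 6.55 and 6.80. Its WT levels lie at the dim end of arrays with no stated background, so no fold is given. It stands outside the rule for named genes and was named after its values were seen, as were Mxra7 (1.09), St6galnac1 (0.99), Rhbdf2 (0.51) and Snhg16 (0.47), which rose too. The calls of St6galnac1, Rhbdf2 and Snhg16 were lost without PBS pool 1 (adjusted p = 0.25, 0.272 and 0.0757) or PBS pool 2 (0.103, 0.0871 and 0.0722), and those of Rhbdf2 and Snhg16 also without Irf3-deficient pool 2 (0.0863 and 0.0638), that of Rhbdf2 without Irf3-deficient pool 3 (0.138).

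Ccr9, a chemokine receptor of gut-homing T cells and plasmacytoid dendritic cells, rose by 2.53 (SE 0.13, adjusted p = 2.48e-07), from 6.81 and 6.84 to 9.28, 9.25 and 9.54. Its treated WT pools, at 6.59 and 6.91, overlapped the PBS pools. Mtmr9, a myotubularin-related protein, rose 4.48-fold (3.81 to 5.26), from 10.71 and 10.67 to 13.02, 12.88 and 12.66. Mtmr9 in the treated WT pools read 10.85 and 10.86, so the Irf3-deficient pools lay above all 4 WT pools. Trim13, an E3 ubiquitin ligase of the endoplasmic reticulum, fell by 2.20 (SE 0.16), from 8.10 and 7.92 to 6.18, 5.62 and 5.62, with treated WT pools at 8.36 and 8.07. The WT levels of Ccr9 and the Irf3-deficient levels of Trim13 are dim too, and no fold is given for either.

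Other large differences went the way of the treated WT cells. Cyp7b1, an oxysterol hydroxylase, rose 4.16-fold (3.22 to 5.36), from 7.74 and 7.47 to 9.73, 9.28 and 9.97, with treated WT pools at 8.81 and 8.84. Its PBS pools were dim, with no stated background, so the size of this fold is uncertain. Havcr1 (TIM-1) rose 3.62-fold (2.94 to 4.46) and Cd1d2, a lipid-presenting molecule, 3.57-fold (2.97 to 4.30), with treated WT pools between the other groups for both. Qpct, the glutaminyl cyclase, fell 6.30-fold (5.16 to 7.69, adjusted p = 2.48e-07), from 10.92 and 10.75 to 8.29, 8.32 and 7.93. Qpct in the treated WT pools, at 10.18 and 10.05, lay nearer to the PBS pools. Cd101, an inhibitory receptor of myeloid cells, fell 4.03-fold (3.02 to 5.37), from 10.31 and 10.14 to 8.39, 8.18 and 8.08, with treated WT pools at 9.06 and 8.25.

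The 20 measured genes nearest to Irf3 along its chromosome, 10 on each side, held 0 rises and 4 falls, against 4.91% of all genes lower, with a median of -0.04. The 4 falls were 2 without PBS pool 1 or Irf3-deficient pool 3. Snord33, Snord35a and Snord35b, of the small noncoding RNA class above, made up 3 of the 4, and the call of Snord35a was lost without PBS pool 1 (adjusted p = 0.27) or Irf3-deficient pool 3 (0.0581). Snord35b read 11.74 and 11.02 in the PBS pools, 11.18 and 11.89 in the treated WT pools, and 9.43, 9.68 and 9.76 in the Irf3-deficient pools. Bcl2l12, the fourth and a close neighbour of Irf3, fell by 0.40 (adjusted p = 0.0371), from 8.88 and 8.92 to 8.60, 8.35 and 8.56. The call of Bcl2l12 was lost without PBS pool 1 (0.15), PBS pool 2 (0.138), Irf3-deficient pool 2 (0.153) or Irf3-deficient pool 3 (0.0704).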

How the data were processed

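Expression in 7 pools of sorted lung cDC2s was read from Affymetrix Mouse Gene 1.0 ST arrays. The deposited values are on the log2 scale; per the submitters' processing notes they involved R 3.2.1, the oligo package and RMA, in no stated order. RMA usually subtracts background, equalises the arrays' distributions and summarises probes, so a shift shared by most transcripts would not be seen. Array medians lay between 7.60 and 7.69. No detection calls, scan dates or genome build are given in the sources used here, and the number of arrays limits the precision.

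Of 35556 probesets, 21789 carried 1 gene symbol in the platform annotation, 1621 several and 12146 none listed; those with 1 symbol gave 19938 genes, 19856 of them matched by Entrez identifier to RefSeq (GRCm38.p6), which updated names and gave gene order. For 999 genes with several probesets the one with the highest mean was kept. Members of the Gbp, Oas, Slfn, Ifi200 and Ifit families are near copies and may share probes. Promoter pieces are RefSeq sequence of that build.

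limma 3.58.1 in R 4.3.3 (lmFit, eBayes with an intensity trend) fitted 3 group means over 7 arrays, with 4 residual and 8.34 prior degrees of freedom. Tests were two-sided with Benjamini-Hochberg adjustment over all genes and a threshold of 0.05; every adjusted p in the report is from this fit or a repeat of it with the pool left out or the probesets averaged, as named beside it. The fit was also run on simulated data with independent noise on each array. Such data hold no shared effect of pool or RNA preparation, so they cannot show how the fit deals with one.

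The members and the 27 lists (674 genes, 613 measured) were chosen with earlier results of these data known. The lists overlap, with 731 entries for the 674 genes. Named genes are Irf3, the 15 largest rises and 15 largest falls that were called without overlap between the groups (predicted genes and genes whose probesets disagreed in sign were left out), at most 2 called members of each list per direction, taken by p, and 24 genes chosen for the question, such as Ifnb1 and Ccl17; others were named after their values were seen. Isg15, 1 of the 24, had no own probeset. Alternatives were a replicate block, the 5 compared arrays alone, median centring, quantile normalization, a filter on dim genes, no trend, the mean of probesets, array weights and leaving out each array. The labels do not say whether replicate numbers pair the samples. Deviations of same-numbered PBS and Irf3-deficient pools correlated at 0.178 and -0.0895. With 2 PBS pools the deviations are equal and opposite, so these values cannot settle it.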

Additional observations from a re-analysis of the deposited data

How the results depend on the processing

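With the replicate block 1426 genes were called, 626 of them lower and 800 higher; the numbers do not mark a pairing in the labels. Leaving out 1 array gave 749 to 2359 genes called, 479 to 1261 higher, 270 to 1098 lower and 169 to 293 called with at least a 2-fold difference. It gave 26 to 40 interferon-stimulated genes higher, 19 to 29 maturation genes higher, 9 to 18 cytokines and chemokines higher, 4 to 7 monocyte and macrophage markers lower and 1 to 18 cell cycle genes lower. The lowest count of each came without PBS pool 1, except that the 26 interferon-stimulated genes were also reached without PBS pool 2. Ifnb1, not called in any case, ranged from -0.29 to 0.079 on leaving out 1 array, with 0.03 without Irf3-deficient pool 2 and 0.079 without PBS pool 2, and Il33 from -0.36 to 0.0073, the latter without PBS pool 2. Quantile normalization gave 1035 genes higher and 1110 lower, median centring 1035 and 893. Array weights, the mean of probesets, no trend, the 5 arrays alone and the filter on dim genes gave 2037 to 2363 genes called. Of 109 named genes other than Irf3, 100 were called, 67 of these under every alternative, and 0 called genes changed direction. Irf3 fell under all alternatives, by 1.24 to 1.33. No detection call came with the values, so dim genes such as Ifnb1 have no stated background. Folds from dim PBS pools, as for Arg2 and Cyp7b1, are uncertain in size for the same reason.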
